A study of Homo sapiens with 4 samples.

Results

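CpG methylation was measured around the transcript starts of 9 tumor suppressor genes, CDKN2A, CDKN2B, CDH1, GSTP1, DAPK1, SFRP1, SOCS1, RASSF1 and WT1, chosen by name because the CpG islands at their starts are known to gain methylation in tumors. They are 9 of 19970 protein-coding genes of the annotation. For each gene the promoter (from 1000 bp upstream to 500 bp downstream of the MANE Select transcript start, the reference transcript shared by RefSeq and GENCODE) and 5000 bp on either side of it were read. All 9 starts lay inside a CpG island computed from the hg38 sequence. Whether these islands are prone to gain methylation was not tested here. The cells were HUDEP-2, a human erythroid progenitor line derived from umbilical cord blood and immortalised with inducible papillomavirus oncogenes. There were 4 whole-genome bisulfite libraries, 1 from each group. The non-differentiated library came from untreated expanding cells. The other 3 libraries came from cells kept in 0.1% DMSO from expansion on, then grown for 4 days and matured for 2 days in differentiation media, of which 1 had the vehicle alone, 1 also a DNMT1 inhibitor and 1 also an inhibitor of EED. The labels used here give neither the names nor the doses of the compounds. With 1 library a group there was no spread between replicates. Every interval and test below covers the counting of reads in single libraries and does not generalise to the conditions, and all groups derive from 1 immortal line.

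DNA methylation is the addition of a methyl group to cytosine, in mammals mostly at CpG. Bisulfite turns unmethylated cytosine into a base read as T, so the share of reads with C is the methylation level. DNMT1 copies methylation onto the new strand when DNA is replicated, and methylation is lost by dilution over divisions where it fails. EED is a subunit of Polycomb repressive complex 2, which methylates histone H3. CpG islands at gene starts are usually free of methylation in normal cells, and dense methylation of the island at the start is associated with silencing of the gene.

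Where 4 levels follow each other with no names, they stand for the non-differentiated, the DMSO, the DNMT1 inhibitor and lastly the EED inhibitor library. A level is given as the methylated reads over all reads of the CpGs that all 4 libraries list. The deposited tables hold only CpGs with at least 10 reads, with a mean coverage of 27.2 reads in the non-differentiated, 28 in the DMSO, 28.9 in the DNMT1 inhibitor library and 29.7 in that of the EED inhibitor. Of the 3023 CpGs that the reference has around the 9 starts, 1814 (60.0%) were listed in all 4 libraries. Mean coverage of these CpGs was 0.703 to 1.11 times that of the library. For CDKN2A, a gene deleted in many cell lines, it was 0.762 to 0.801 times, inside the range of the other genes. Promoters were listed less completely than their surroundings, in these genes as over the genome. Over all tested promoters 42.1% of CpGs were shared, and over those on a CpG island 36.8%. In the 9 the shared CpGs ran from 6 of 138 in SOCS1 to 77 of 123 in SFRP1. Only SFRP1 was above these 2 shares. Among promoters of blood cell markers, those of KLF1 and EPB42, erythroid genes, were at 2.12% and 4.31% in DMSO, and 7 of 8 markers of other blood lineages were at 20% or more, while the erythroid genes AHSP and SLC4A1 were at 49.2% and 83.5% and HBB at 15.2%. Low promoter methylation was thus not shared by all erythroid markers, and expression was not measured.

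**Figure D1:**
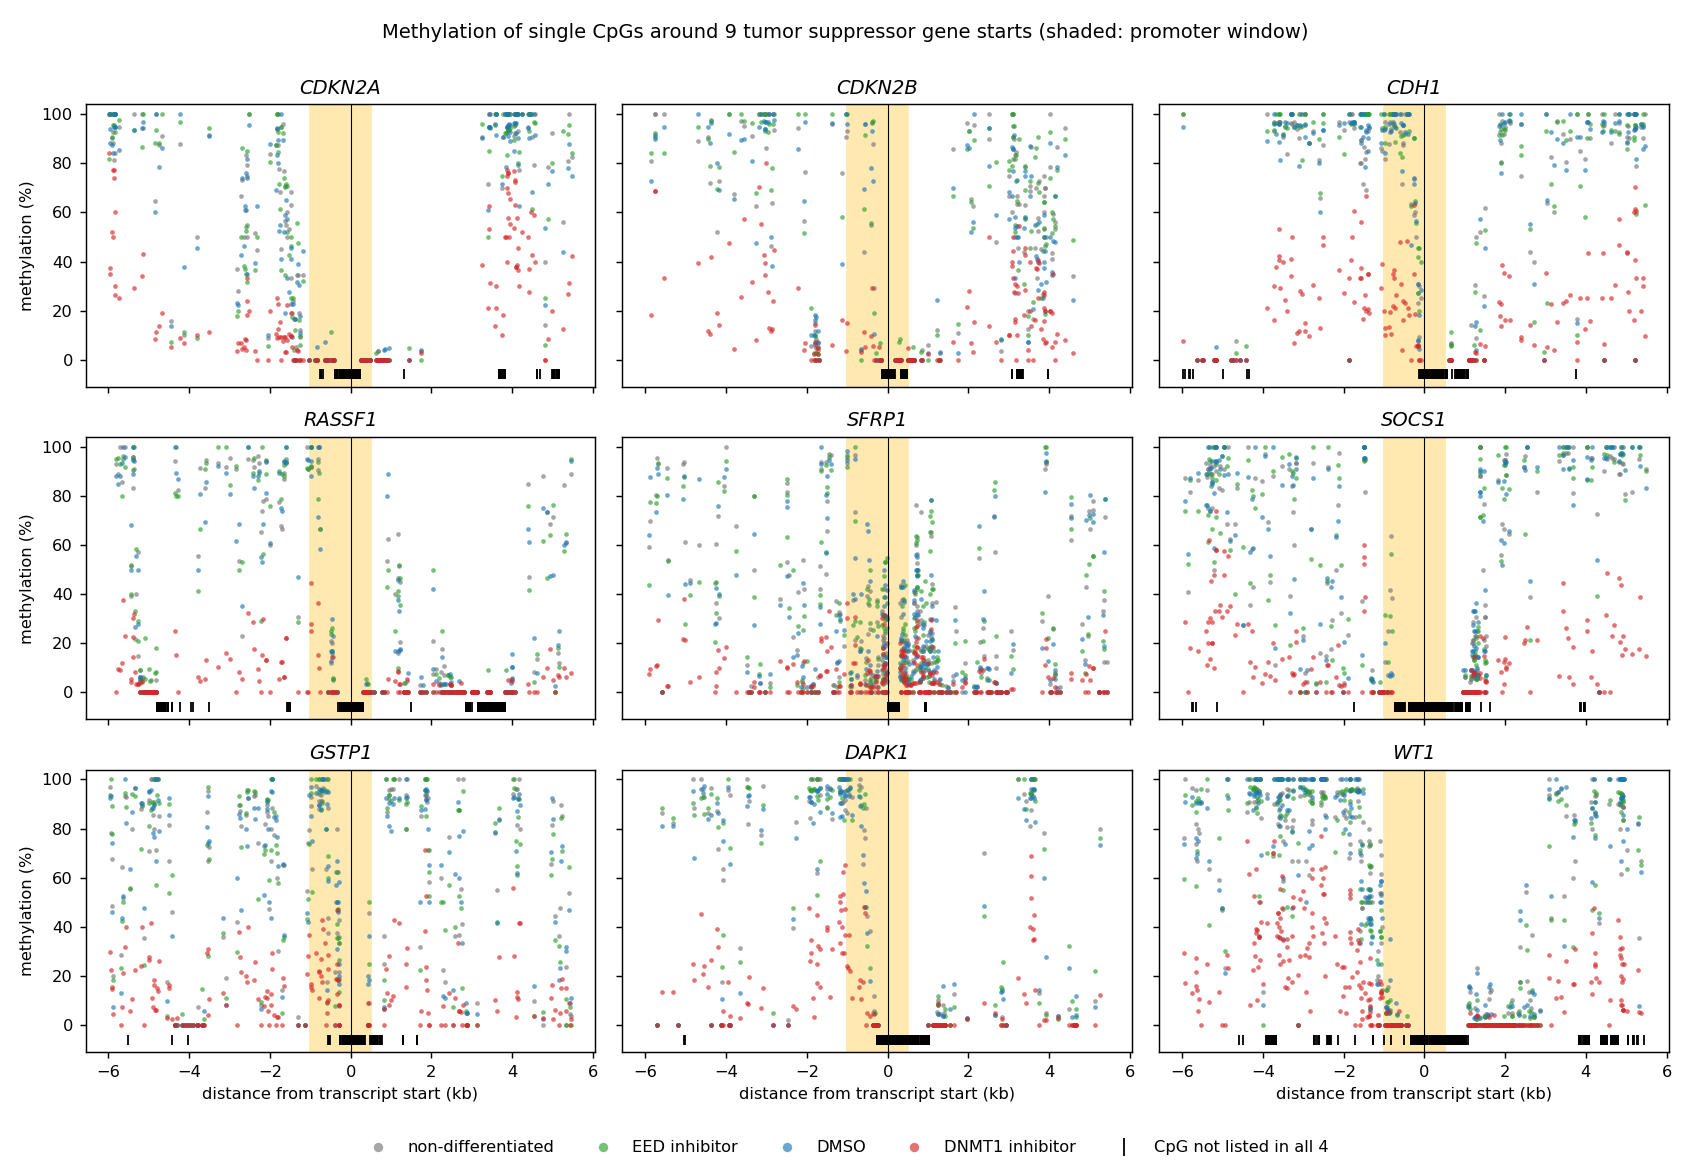
Methylation of single CpGs (percent, vertical axis) against distance from the transcript start (kb, horizontal axis) in the 4 libraries, for CpGs listed in all 4; black ticks at the bottom mark reference CpGs that were not. In SFRP1 the 500 bp windows of the promoter are at 18.2% to 25.8% in DMSO with no trough near 0. CDKN2A and WT1 are near 0 where CpGs are shared, and WT1 has none from its start to 499 bp. The DNMT1 inhibitor points lie below the others in the methylated flanks.

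In DMSO, 4 of the 9 promoter windows were at 20% or more over their shared CpGs. The DMSO levels were 75.8% for CDH1, 69.6% for GSTP1, 47.8% for DAPK1, 23.6% for CDKN2B, 19.8% for SFRP1, 15.5% for RASSF1, 7.69% for SOCS1, 3.51% for WT1 and 0.475% for CDKN2A. In this order the 95% Wilson intervals of neighbours were apart between GSTP1 and DAPK1, between DAPK1 and CDKN2B, and between WT1 and CDKN2A, and overlapped for the other 5 pairs of neighbours. SFRP1 stood just under the line of 20% and CDKN2B just above it. Over each library's own CpGs SFRP1 was at 20.1% and CDKN2B at 11.4%, and as unweighted means at 20.6% and 17.0%, so their side of the line depends on the CpGs and weights used. Of all 18118 promoters with at least 5 shared CpGs, 59.0% were at 20% or more in DMSO, and of the 11579 of them over a CpG island 46.1% were. Among the latter, CDH1 stood at the 96.2nd percentile of the DMSO level, GSTP1 at the 94.1st, DAPK1 at the 83.5th, CDKN2B at the 58.9th and CDKN2A at the 10.9th. For CDH1, GSTP1 and DAPK1 these levels rest mainly on CpGs upstream of the start. From the start to 499 bp, CDH1 had none of 52 CpGs shared and GSTP1 5 of 40. Within 250 bp of the start, over its own CpGs, the DMSO library was at 27.1% in CDH1, 0.718% in CDKN2B and 0% in DAPK1. For GSTP1 it listed no CpG there.

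With the DNMT1 inhibitor, 3 of the 9 promoters (CDH1, GSTP1 and DAPK1) were called lower than in DMSO, where 43.7% of all tested promoters were. A call needed an adjusted p under 0.01 in a two-sided Fisher's exact test of the reads, with Benjamini-Hochberg adjustment over all promoters, and a difference of at least 25 percentage points. Promoters that start under 25% cannot be called lower by this rule, which applied to the other 6. The median difference over the 9 was −13.6 points, beside −20.8 points over all promoters tested. No promoter of the 9 was called in differentiation (DMSO minus non-differentiated), where 0% of all promoters were called lower and 0% higher. In that comparison differentiation cannot be told apart from the vehicle and the time in culture, because the non-differentiated cells were untreated. None of the 9 was called with the EED inhibitor against DMSO, where 0% of all promoters were called lower and 0.0221% higher.

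**Figure D2:**
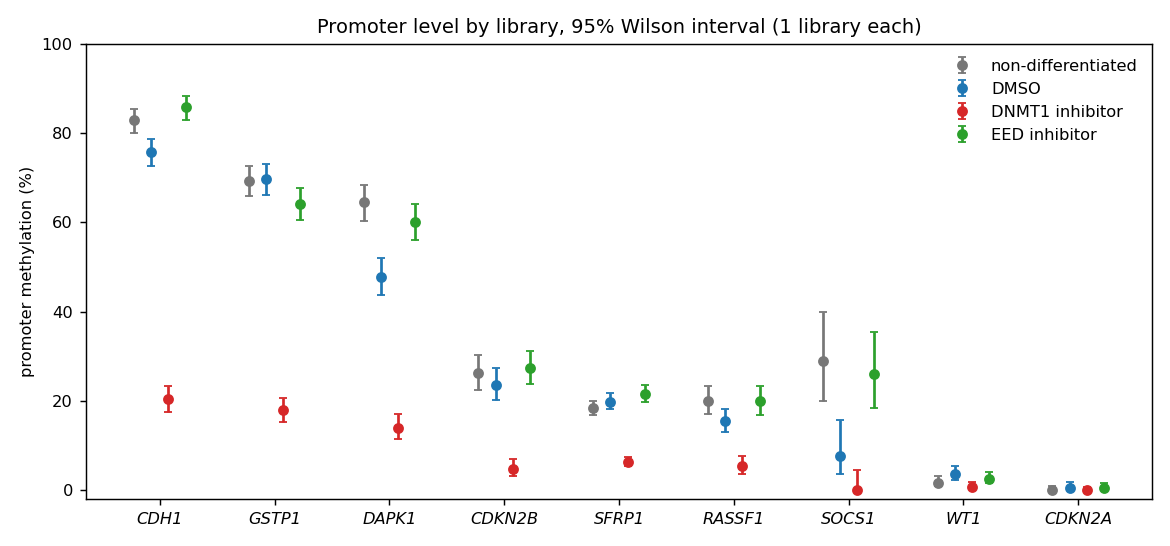
Promoter methylation (percent) of the 9 genes in each library, ordered by the DMSO level; points are levels and bars 95% Wilson intervals of the read counts, with 1 library per group. The DNMT1 inhibitor level is 20.4% or less in every gene, and CDKN2A and WT1 are near 0 in all 4 libraries.

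CDKN2A and CDKN2B are neighbours on chromosome 9 and encode p16 and p15, which inhibit the cyclin-dependent kinases CDK4 and CDK6. CDKN2A also encodes p14ARF, which stabilises p53, from another start and reading frame. The CDKN2A promoter for p16 (hg38 chr9:21974357-21975857, minus strand, 25 shared of 84 reference CpGs) was at 0% in non-differentiated, 0.475% in DMSO, 0% in DNMT1 inhibitor and 0.407% in EED inhibitor cells, from 414 to 491 reads. At these CpGs each library was at or near 0. The 2 zeros allow levels of up to 0.725% and 0.615%. Within 250 bp of the p16 start the non-differentiated library listed none of the 45 CpGs and the DMSO library 6, while the DNMT1 inhibitor library listed 14 and that of the EED inhibitor 19, at 0.420% or less. At the start of the p14ARF transcript (chr9:21993892-21995392, 49 of 133 CpGs) the levels were 0%, 0.410%, 0.120% and 0.101%, with upper interval limits of 1.05% or less here and of 1.72% or less at the p16 start. Within 250 bp of the p14ARF start, where each library's own CpGs were read, the DMSO library had 16 methylated of 358 reads (4.47%), and the other libraries 0.345% or less.

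Both sides of the CDKN2A promoter held methylated CpGs. Over exon 2, which codes for part of both p16 and p14ARF, the 15 shared CpGs were at 96.6% in non-differentiated, 93.7% in DMSO, 59.8% in DNMT1 inhibitor and 94.1% in EED inhibitor cells, from 219 to 328 reads. The 3 libraries without the DNMT1 inhibitor were alike and the inhibitor library was lower, but it kept 63.8% of the DMSO level. Of the 15 CpGs, 12 were still at 50% or more with the DNMT1 inhibitor. The exon resembles its counterpart in CDKN2B. In the best ungapped match, 254 of 307 bases (82.7%) were identical to chr9:22005941-22006247, with a longest identical run of 80 bases, or of 118 when every C is read as T as after bisulfite. Reads from the identical runs could be placed in either gene. The matching stretch of CDKN2B differed in level, with 14 shared CpGs at 71.8% in non-differentiated, 65.2% in DMSO, 32.0% in DNMT1 inhibitor and 79.5% in EED inhibitor cells.

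**Figure D3:**
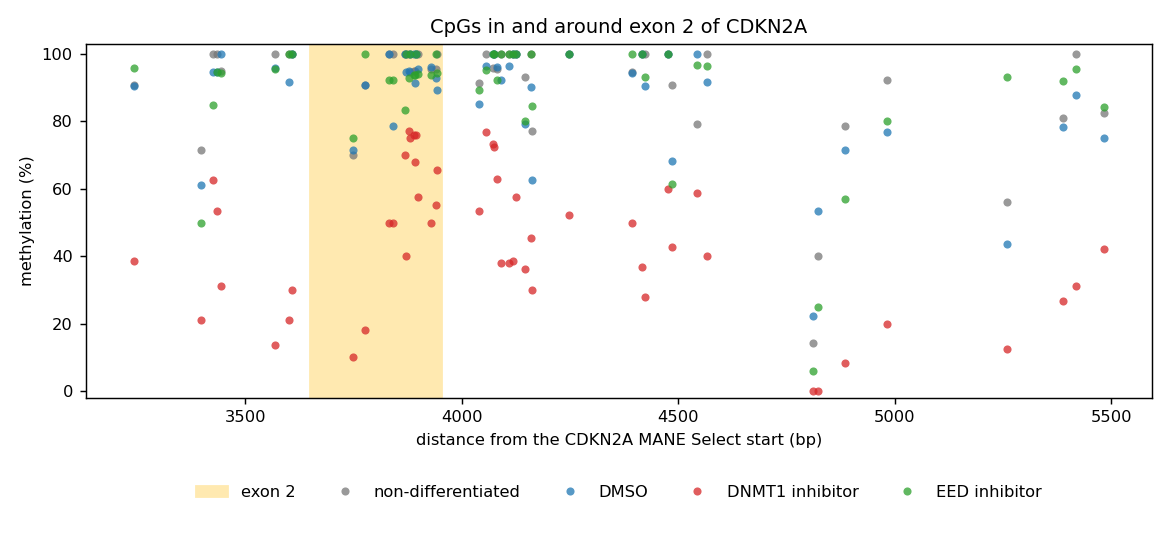
Methylation (percent) of single CpGs of CDKN2A against distance from its start (bp) in the 4 libraries, with exon 2 shaded. Only CpGs listed in all 4 libraries are drawn. At the 15 of them in the exon the DNMT1 inhibitor points lie between 10% and 77.3%, and those of the other libraries between 70% and 100%.

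The high remainder reached beyond the exon. From 3000 to 4499 bp into the gene, limits chosen after the values were seen, 41 CpGs were at 96.3%, 92.4%, 51.2% and 93.2%. The whole 5000 bp after the promoter went from 61.7% in DMSO to 33% with the DNMT1 inhibitor and so kept 53.5%, at the 99.7th percentile of 18503 such downstream stretches at 20% or more in DMSO, whose median is 24.4%. That comparison mixes dense and sparse CpGs. An island by the looser rule (at least 200 bp) covering the exon, chr9:21970577-21971314, was at 93.0% in DMSO and 53.3% with the inhibitor. It kept 57.3%, the 94.8th percentile of 63886 loose islands at 80% or more in DMSO, whose median was 37.6%. A second stretch with a high remainder lay from −6000 to −5501 bp, where 12 CpGs went from 93.1% in DMSO to 52.5%. Nearer to the promoter the level varied between windows. It was 94.9% in DMSO and 36.2% with the inhibitor from −5500 to −5001 bp (3 CpGs), 64.8% and 11.3% from −2000 to −1501 bp, and 22.3% and 3.06% from −1500 to −1001 bp. With the promoter taken from −2000 bp, CDKN2A was at 27.8% in DMSO and the DNMT1 inhibitor difference was −23.0 points.

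The CDKN2B promoter (chr9:22008805-22010305, minus strand, 25 of 82 CpGs) was at 26.1% in non-differentiated, 23.6% in DMSO, 4.65% in DNMT1 inhibitor and 27.3% in EED inhibitor cells. Only the inhibitor of DNMT1 stood apart, with a difference of −19.0 points (interval −23.1 to −14.9, adjusted p = 7.06e-19 by Fisher's exact test), under the 25 points that a call needs. At CpGs with at least 20 reads in all libraries the level was 51.4% in DMSO and 7.87% with the DNMT1 inhibitor, and the difference of −43.6 points passed. Over each library's own CpGs the DMSO level was 11.4% and the difference −8.88 points, and as an unweighted mean over CpGs they were 17.0% and −14.0 points. The methylation sat upstream. From −500 to −1 bp, 9 shared CpGs were at 33.1% in DMSO, while from the start to 499 bp downstream 13 shared CpGs were at 0%. The 250 bases before the start are shown because their CpGs were at 0% in DMSO next to the methylated stretch further upstream. The sequence is from RefSeq (GRCh38.p14), chr9:22009306-22009555, on the minus strand of the gene, and capitals mark the 16 of 18 CpGs listed in DMSO. All 16 were at 0% there, from 220 reads, which allows up to 1.36%.
CDKN2B 250 bases before the start: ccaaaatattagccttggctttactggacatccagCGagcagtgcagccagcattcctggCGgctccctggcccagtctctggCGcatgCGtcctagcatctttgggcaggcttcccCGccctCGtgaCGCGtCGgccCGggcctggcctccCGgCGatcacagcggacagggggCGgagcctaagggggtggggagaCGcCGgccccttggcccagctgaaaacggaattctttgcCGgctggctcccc
In the same stretch 0.752% of reads were methylated with the DNMT1 inhibitor and 1.34% with the inhibitor of EED. Further into CDKN2B, an island from 2784 to 3749 bp after the start, which includes the stretch similar to CDKN2A, was at 57.3% in non-differentiated, 53.7% in DMSO, 25.6% in DNMT1 inhibitor and 65.3% in EED inhibitor cells. It was called lower with the DNMT1 inhibitor (−28.1 points, adjusted p = 1.38e-22 by Fisher's exact test) and kept 47.7%.

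CDH1 encodes E-cadherin, the adhesion molecule of epithelial cells, which erythroid progenitors also carry at some stages. Its promoter (chr16:68736292-68737792, plus strand, 32 of 93 CpGs) was at 82.9% (95% interval 80.0 to 85.5%) in non-differentiated, 75.8% (72.6 to 78.6%) in DMSO, 20.4% (17.6 to 23.4%) in DNMT1 inhibitor and 85.8% (82.9 to 88.2%) in EED inhibitor cells. At shared CpGs its level was above that of the other 8 in each library, but its interval overlapped that of GSTP1 in DMSO and in the DNMT1 inhibitor library. Over each library's own CpGs GSTP1 was the higher of the pair in both, at 67.5% against 63.4% and at 17.0% against 16.3%. The CDH1 promoter fell by 55.4 points with the DNMT1 inhibitor (for an adjusted p = 1.27e-107, Fisher's exact test) and kept 26.9% of the DMSO level. This average joins unlike parts. No CpG from the start to 499 bp was listed in all 4 libraries, so the average holds upstream CpGs only. From −1000 to −350 bp, 21 CpGs were at 94.0%, 95.5%, 23.3% and 94.9%. From −350 to −130 bp, 10 CpGs were at 47.4%, 39.7%, 13.7% and 60.3%, and beyond 500 bp downstream, from 500 to 999 bp, 5 CpGs were at 2.70%, 0%, 0% and 4.88%. These limits were chosen after the values were seen.

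Close to the CDH1 start, within 250 bp, only 9 of 43 CpGs were shared, with median CpG levels of 30%, 28.6%, 5.56% and 45.5%. Each library's own CpGs were therefore read as well. Over these the non-differentiated library was at 25.3% from 29 of 43 reference CpGs, DMSO at 27.1% from 26, the DNMT1 inhibitor at 5.88% from 27 and the EED inhibitor at 44.1% from 13. The CpGs differ between these values, and 8 of the 13 that the EED inhibitor library lists lie between −248 and −136 bp, on the more methylated upstream side. CDH1 and SFRP1 were the genes of the 9 with more than 15% in this core in each library other than that with the DNMT1 inhibitor, and GSTP1 had this in the 1 library with more than 1 CpG there. In this core the DNMT1 inhibitor difference of CDH1 at shared CpGs was −24.9 points, under the size of a call. The island of CDH1 (−406 to 1328 bp) was at 32.8%, 28.4%, 6.73% and 38.6%. An isolated gap without methylation lay upstream, from −5500 to −4001 bp, where 10 CpGs were at 0.448% in DMSO.

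GSTP1 encodes a glutathione S-transferase, an enzyme that joins glutathione to reactive compounds, and its island is the classic methylated locus of prostate cancer. The promoter (chr11:67582812-67584312, plus strand, 36 of 105 CpGs) was at 69.3% (65.9 to 72.5%) in non-differentiated, 69.6% (66.1 to 73.0%) in DMSO, 17.8% (15.3 to 20.6%) in DNMT1 inhibitor and 64.2% (60.6 to 67.7%) in EED inhibitor cells. The first pair differed by 0.299 points. The DNMT1 inhibitor level fell by 51.8 points (adjusted p = 1.74e-92, Fisher's exact test), with 25.6% kept. Most of this level came from the upstream part, from −1000 to −560 bp, where 17 CpGs were at 87.6% in non-differentiated, 87.7% in DMSO, 20.5% in DNMT1 inhibitor and 87.5% in EED inhibitor cells. From −560 to −270 bp, 14 CpGs were at 42.5%, 41.1%, 14.9% and 34.1%, and 5 CpGs of the first intron, from 410 to 460 bp, were at 10.7%, 18.5%, 1.82% and 12.7%.

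The part of the GSTP1 island that is read in cancer studies was mostly not covered. Within 250 bp of the start 7 of 54 CpGs were listed in the non-differentiated library, at 32.4% (22.9 to 43.7%, 74 reads), none in the DMSO or DNMT1 inhibitor library and a single one with the EED inhibitor, at 0 of 11 reads. The 250 bases before the start (RefSeq, GRCh38.p14, chr11:67583562-67583811, plus strand) are shown to make this gap visible. Capitals mark the 3 of 28 CpGs listed in non-differentiated cells, which together were at 12.1% of 33 reads.
GSTP1 250 bases before the start: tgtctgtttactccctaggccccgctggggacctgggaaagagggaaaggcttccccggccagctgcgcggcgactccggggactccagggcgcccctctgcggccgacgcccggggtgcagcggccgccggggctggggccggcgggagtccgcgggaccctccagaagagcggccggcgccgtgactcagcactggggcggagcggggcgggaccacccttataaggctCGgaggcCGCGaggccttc
The promoter level of GSTP1 thus describes mainly its upstream part, and methylation at the start was not measured in 3 of the 4 libraries beyond the 11 reads named.

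**Figure D4:**
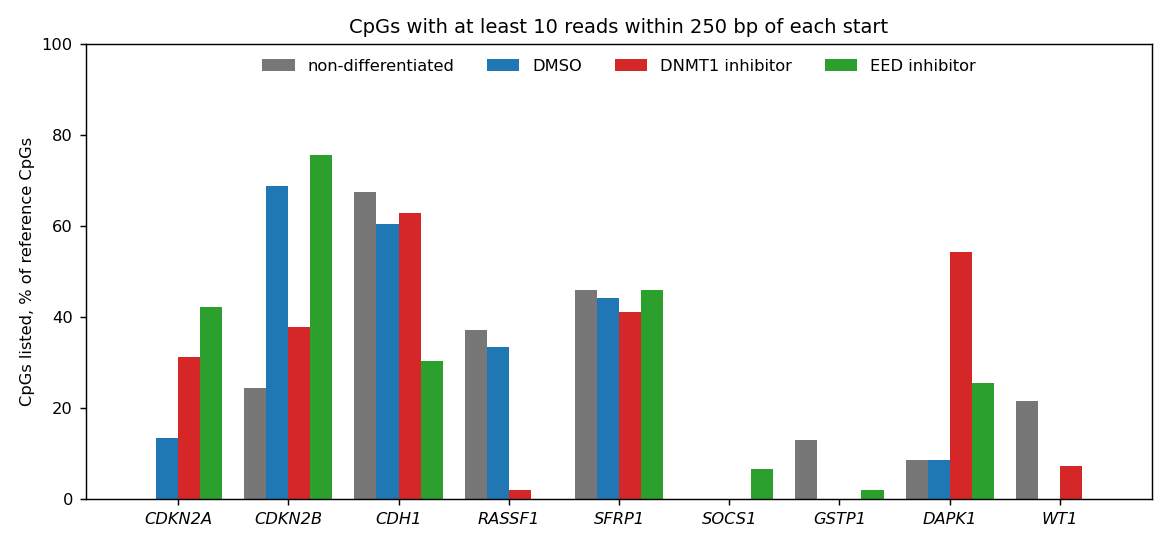
Share of reference CpGs (percent) within 250 bp of each start that a library lists with at least 10 reads, for the 9 genes and 4 libraries. The share runs from 0 of 61 CpGs in 3 libraries at SOCS1 to 34 of 45 in the EED inhibitor library at CDKN2B, and no library is the best covered in every gene.

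DAPK1 encodes death-associated protein kinase 1, a calcium and calmodulin dependent kinase that promotes cell death and whose island is often methylated in blood cancers. The promoter (chr9:87496867-87498367, plus strand, 22 of 109 CpGs) was at 64.5% (60.3 to 68.4%) in non-differentiated, 47.8% (43.7 to 51.9%) in DMSO, 14% (11.4 to 17.1%) in DNMT1 inhibitor and 60.1% (56.0 to 64.1%) in EED inhibitor cells. The DMSO library was lower than the other 2 libraries without the DNMT1 inhibitor, and the inhibitor library was the lowest. With the DNMT1 inhibitor the level fell by 33.8 points (adjusted p = 2.15e-35, Fisher's exact test), and 29.3% was kept. Over its own 55 listed CpGs the DNMT1 inhibitor library was at 8.34%, beside 41.7% over the 28 of DMSO, a ratio of 20%. These CpGs differ, since within 250 bp of the start the inhibitor library listed 32, all at 0%, and DMSO 5. The ratio is thus not a share kept at the same CpGs. The difference of DMSO from non-differentiated was −16.7 points (interval −22.4 to −10.9, adjusted p = 8.9e-06, Fisher's exact test) and that of the EED inhibitor from DMSO 12.3 points (6.52 to 18.1, adjusted p = 0.00162), both under the size of a call. As an unweighted mean the difference of DMSO from non-differentiated was −7.66 points, with the promoter from −2000 bp −8.84 (adjusted p = 3.33e-05, Fisher's exact test), at CpGs with at least 20 reads −14.8 (adjusted p = 0.00178) and over each library's own CpGs −15.7 (adjusted p = 8.85e-07). These comparisons share the DMSO library. Set against non-differentiated cells, the EED inhibitor value was −4.38 points, which did not pass (adjusted p = 0.433, Fisher's exact test).

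The DAPK1 difference between DMSO and the other libraries was read in 3 stretches. From −1000 to −650 bp, 7 CpGs were at 96.9%, 90.3%, 20.1% and 92.9%, with the intervals of non-differentiated cells (94.0 to 98.4%) and DMSO (85.7 to 93.6%) apart. From −650 to −400 bp, 6 CpGs were at 66.2%, 47.0%, 20.3% and 65.7%, and the intervals of DMSO (39.2 to 55%) and non-differentiated cells (58.0 to 73.5%) were further apart. From −400 to −220 bp, 9 CpGs were at 2.88%, 0%, 0.559% and 0.676%. The limits were chosen after the values were seen. The edge is shown from hg38, chr9:87497217-87497506, plus strand, to let the sparse CpGs of the fading part be seen, and capitals mark the 4 of 8 CpGs at 50% or more in non-differentiated cells.
DAPK1 upstream edge: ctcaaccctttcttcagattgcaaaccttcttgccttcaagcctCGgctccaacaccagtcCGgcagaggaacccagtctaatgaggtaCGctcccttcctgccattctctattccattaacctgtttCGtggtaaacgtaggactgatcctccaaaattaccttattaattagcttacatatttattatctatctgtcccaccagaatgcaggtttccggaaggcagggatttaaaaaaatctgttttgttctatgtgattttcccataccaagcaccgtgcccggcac
Over these 8 CpGs the level was 51.7% in non-differentiated, 33.8% in DMSO, 14.7% in DNMT1 inhibitor and 52.2% in EED inhibitor cells. Within 250 bp of the start the DNMT1 inhibitor library listed 32 of 59 CpGs, all at 0% (370 reads, allowing up to 0.811%), while the non-differentiated and DMSO libraries listed 5 each, also at 0%.

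SFRP1 encodes a secreted antagonist of Wnt ligands and is often silenced by methylation in colon cancer. Its promoter (chr8:41308973-41310473, minus strand) had the most complete coverage, with 77 of 123 CpGs shared, and was at 18.4% in non-differentiated, 19.8% in DMSO, 6.25% in DNMT1 inhibitor and 21.5% in EED inhibitor cells. The intervals of the 3 libraries without the DNMT1 inhibitor lay between 16.9% and 23.5%. The DNMT1 inhibitor differed from DMSO by −13.6 points (interval −15.7 to −11.5, adjusted p = 1.04e-37, Fisher's exact test), under the size of a call. No trough near 0 was seen at the SFRP1 start. In its 250 bp core the levels were 18.1%, 18.7%, 8.15% and 25.5%, from 25 to 28 of 61 CpGs, much like those of the whole promoter. The promoter stood at the 53.6th percentile of island promoters in DMSO, and its upstream flank, at 44%, at the 12.8th of upstream flanks.

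SOCS1 encodes a suppressor of cytokine signalling that binds JAK kinases, including JAK2, on which erythropoietin signalling depends. Its promoter (chr16:11255704-11257204, minus strand) was the thinnest, with 6 of 138 CpGs shared, and was at 28.9% (20 to 40%) in non-differentiated, 7.69% (3.57 to 15.8%) in DMSO, 0% (up to 3.70%) in DNMT1 inhibitor and 26.0% (18.4 to 35.4%) in EED inhibitor cells, from 76 to 100 reads. The EED inhibitor library lists 25 CpGs of this promoter and was at 7.80% over them, beside 5.41% over the 12 of DMSO. No comparison with DMSO passed, with adjusted p from Fisher's exact test of 0.0206 for differentiation, 0.0146 for the DNMT1 inhibitor and 0.0260 for the EED inhibitor. Set against non-differentiated cells, the DNMT1 inhibitor difference of SOCS1 was −28.9 points and passed (adjusted p = 2.51e-08, Fisher's exact test), for 4 rather than 3 of the 9 promoters, where 44.7% of all promoters passed. The 6 CpGs lie on the upstream edge, and none of the 61 CpGs in the core was listed in 3 of the libraries. In the EED inhibitor library 4 were, at 0 of 44 reads. The island around the SOCS1 start (−762 to 1718 bp, 53 of 252 CpGs) gave steadier values, at 20.8% in non-differentiated, 20.6% in DMSO, 2.54% in DNMT1 inhibitor and 19.6% in EED inhibitor cells. Of its 53 shared CpGs, 44 lay from 1000 to 1499 bp after the start, where the DMSO level was 23.8% and that of the DNMT1 inhibitor library 2.71%. Upstream, from −1500 to −1001 bp, 18 CpGs went only from 29.4% in DMSO to 18.4% with the DNMT1 inhibitor.

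RASSF1 encodes scaffold proteins that bind Ras-like GTPases, and the island of its longer A isoform is methylated in many carcinomas. The promoter (chr3:50340336-50341836, minus strand, 33 of 101 CpGs) was at 19.9% in non-differentiated, 15.5% in DMSO, 5.33% in DNMT1 inhibitor and 19.9% in EED inhibitor cells. These values came from the upstream end. From the start to 499 bp downstream 17 CpGs were at 0.213% in DMSO, while from −1000 to −501 bp the DMSO level of 8 CpGs was 70.5% and that of the DNMT1 inhibitor library 20.8%. The DNMT1 inhibitor difference was −10.1 points (interval −13.3 to −6.84, adjusted p = 9.57e-09, Fisher's exact test). At CpGs with at least 20 reads in all libraries the RASSF1 promoter was at 0.833% in non-differentiated cells and 0% in the other libraries. The island at the start was at 3.45%, 3.56%, 0.484% and 3.31%. A downstream island from 2240 to 4151 bp, over the antisense gene RASSF1-AS1, was at 1.05%, 1.77%, 0.415% and 1.67%. The neighbouring gene ZMYND10, on the same strand, spans −4896 to −274 bp. It thus covers most of the upstream flank and also the methylated upstream end of the promoter window. At the start of ZMYND10, from −5000 to −4501 bp, 22 CpGs were at 1.91% or less in each library. RASSF1 had 40 of its 223 shared CpGs at 80% or more in DMSO and none at 50% or more with the DNMT1 inhibitor. Its upstream flank kept 15.4% of the DMSO level, the 5.46th percentile of upstream flanks.

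WT1 encodes a zinc finger transcription factor of kidney and gonad development that is also expressed in immature blood cells. Its promoter (chr11:32435039-32436539, minus strand, 28 of 107 CpGs) was at 1.55% in non-differentiated, 3.51% in DMSO, 0.585% in DNMT1 inhibitor and 2.44% in EED inhibitor cells. All values were low, and of the 28 CpGs the highest single one was at 35.0% in DMSO. Of these 28, 25 lay from −1000 to −501 bp. The island at the start (−255 to 2292 bp, 73 of 199 CpGs) was at 2.25% in DMSO. Its shared CpGs lay mostly from 1000 bp on. None of the 52 CpGs from the start to 499 bp, nor of the 52 from 500 to 999 bp, was shared. Within 250 bp of the start the non-differentiated library listed 9 of 42 CpGs and the DNMT1 inhibitor library 3, all at 0%. The DMSO and EED inhibitor libraries listed none there, so their level at the WT1 start was not measured. A second island directly upstream (−1768 to −427 bp), inside the antisense gene WT1-AS, was at 39.7% in non-differentiated, 35.2% in DMSO, 8.39% in DNMT1 inhibitor and 31.5% in EED inhibitor cells, and was called lower with the DNMT1 inhibitor (−26.9 points, adjusted p = 5.11e-68, Fisher's exact test). Another island (−4267 to −3148 bp), also within WT1-AS, was at 88.5%, 86.4%, 36.5% and 86.1%. It fell by 50.0 points with the DNMT1 inhibitor (for an adjusted p = 3.22e-97, Fisher's exact test) and kept 42.2%, beside a median of 45.2% over 3546 islands at 80% or more in DMSO. In DMSO the level was 3.81% from −1000 to −501 bp, 42.7% from −1500 to −1001 bp and 83.7% from −2000 to −1501 bp. With the promoter taken from −2000 bp, the DNMT1 inhibitor difference of WT1 was −30.1 points and passed. Around WT1, 24 upstream CpGs were at 50% or more with the DNMT1 inhibitor.

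Of the 13 islands around the 9 starts, 4 were called lower with the DNMT1 inhibitor, where 39.2% of all islands were. They were the island at the GSTP1 start (42.0% in DMSO, 12.2% with the inhibitor), the 2 upstream of WT1 and that inside CDKN2B. No island was called in differentiation, where 0% of all islands were called, or with the EED inhibitor, where 0% were called lower and 0.0203% higher. When the reads of an island were divided by its CpGs, because neighbouring CpGs share reads, none of the 13 passed with the DNMT1 inhibitor, where 9.80% of all islands did, and for the promoters 2 of 9 did, where 18.5% of all promoters did. All 9 upstream flanks were called lower with the DNMT1 inhibitor, where 95.1% of all were, by differences from −35.1 points in SFRP1 to −52.2 points in WT1. Among downstream flanks 5 of 9 were called lower (CDH1, GSTP1, SOCS1, CDKN2A and CDKN2B), where 91.9% of all were. Those of RASSF1, WT1, SFRP1 and DAPK1 began at 13%, 24.4%, 22.1% and 30.9% in DMSO, and differed by −11.3, −19.0, −17.0 and −22.0 points. The flanks of RASSF1, WT1 and SFRP1 thus began too low for a call. In differentiation and with the EED inhibitor no flank of the 9 was called in either direction, nor was any other (0% in each).

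What the DNMT1 inhibitor left in the promoters was close to what it left elsewhere. Of the 4 promoters at 20% or more in DMSO, CDKN2B kept 19.7% of its DMSO level (interval 12.8 to 30.2%), GSTP1 25.6% (21.9 to 29.9%), CDH1 26.9% (23.2 to 31.2%) and DAPK1 29.3% (23.5 to 36.6%). The median over 10698 promoters at 20% or more was 23.8%, with the lower quartile at 17.5% and the upper at 31.2%. All 4 lay between these quartiles. In the DNMT1 inhibitor library, however, CDH1, GSTP1 and DAPK1 still stood at the 94.0th, 91.8th and 86.7th percentile of island promoters, so their order among promoters was much as in DMSO.

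**Figure D5:**
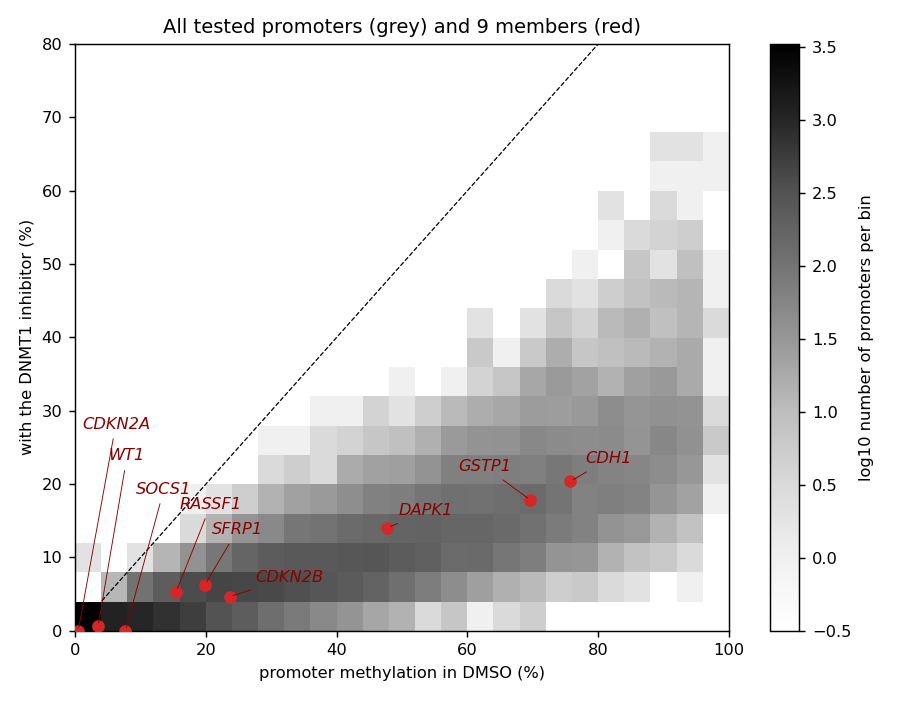
Promoter methylation (percent) with the DNMT1 inhibitor against DMSO for 18118 promoters, as the log10 number of promoters per bin of 4 by 4 points (grey), and for the 9 genes (red); the dashed line marks equal levels. The 9 genes lie within the grey cloud, from CDKN2A at 0.475% and 0% to CDH1 at 75.8% and 20.4%.

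Single CpGs show where methylation remained. Of the 1814 shared CpGs, 627 were at 80% or more in DMSO and 2 with the DNMT1 inhibitor, while 97 were at 50% or more with the inhibitor. These were 31 in CDKN2A, 24 around WT1, 13 around CDH1, 9 each around CDKN2B and SOCS1, 8 around DAPK1, 3 around GSTP1 and none around RASSF1 or SFRP1. The genes began from unlike numbers of CpGs at 80% or more in DMSO. There were 66 in CDKN2A, 124 around WT1, 109 around CDH1, 40 around RASSF1 and 22 around SFRP1. The same shares over all CpGs of the genome were not computed. Of 42 windows of 500 bp that held 5 or more shared CpGs and were at 80% or more in DMSO, the share kept ran from 13.2% to 57.0% with a median of 29.2%. The 4 such windows of CDKN2A kept 45.6% to 57.0%, and the 2 of RASSF1 13.2% and 15%. The highest window of CDKN2B kept 51.2%, that of SOCS1 50.8% and that of WT1 48.7%, inside the CDKN2A range. Windows with fewer CpGs reached lower, with 38.1% and 15.4% kept in the 2 of CDKN2A (from −5500 and from −5000 bp) and 0% in 1 of RASSF1 (from −1500 bp, 3 CpGs). The 2 CpGs at 80% or more with the inhibitor were 1 at −5995 bp of CDKN2A, at 100% in DMSO and 84.2% with the inhibitor (19 reads), and 1 at −3009 bp of CDKN2B, at 97.0% and 80.0% (25 reads). The latter lies in the pseudogene UBA52P6. At 5214 bp of CDH1, in the 5S ribosomal RNA pseudogene RNA5SP429, a CpG was at 94.1% and 70.4% (27 reads). Over the whole UBA52P6 stretch 10 CpGs went from 85.1% in DMSO to 37.0% with the inhibitor, and over RNA5SP429 7 CpGs from 80.5% to 46.5%. Pseudogenes have close relatives elsewhere in the genome, so the placement of reads there is uncertain.

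With the EED inhibitor no promoter of the 9 passed the size of a call. In CDH1, DAPK1 and SOCS1 its library was above DMSO, by 10.0 points (interval 5.95 to 14, adjusted p = 0.000176, Fisher's exact test), 12.3 points and 18.3 points. These sizes varied with the CpGs used. Over each library's own CpGs, the CpGs compared are not the same in both libraries. In CDH1 they were 36 with the EED inhibitor and 49 in DMSO, of which 13 and 26 lay within 250 bp of the start. In SOCS1 they were 8 in non-differentiated cells, 12 in DMSO and 25 with the EED inhibitor. CDH1 was 2.54 points higher at CpGs with at least 20 reads (adjusted p = 0.656, Fisher's exact test), 5.15 as an unweighted mean and 7.88 with the promoter from −2000 bp (adjusted p = 2.46e-05). It was 18.5 points higher over each library's own CpGs (adjusted p = 6.77e-15, Fisher's exact test) and 18.9 within 250 bp of the start (adjusted p = 0.0479). DAPK1 was 5.02 points higher as an unweighted mean, 5.63 over each library's own CpGs (adjusted p = 0.125, Fisher's exact test), 5.71 with the promoter from −2000 bp (adjusted p = 0.0168) and 12.9 at CpGs with at least 20 reads (adjusted p = 0.00588). For SOCS1 the difference was 2.40 points over each library's own CpGs (adjusted p = 0.670, Fisher's exact test), 0.133 points with the promoter from −2000 bp (adjusted p = 1) and 18.0 as an unweighted mean. In the same 3 genes DMSO was below the non-differentiated library, by differences of −7.16 points (adjusted p = 0.0211, Fisher's exact test) for CDH1, −16.7 for DAPK1 and −21.3 for SOCS1. For CDH1 this was −0.701 points as an unweighted mean, −1.09 at CpGs with at least 20 reads (adjusted p = 0.994, Fisher's exact test), −2.97 with the promoter from −2000 bp (adjusted p = 0.245), −3.35 over each library's own CpGs (adjusted p = 0.318) and −7.00 within 250 bp of the start (adjusted p = 1). For SOCS1 it was −1.99 with the promoter from −2000 bp (adjusted p = 0.750, Fisher's exact test), −17.5 over each library's own CpGs (adjusted p = 0.000918) and −22.1 as an unweighted mean. The DMSO library is common to both comparisons. Against non-differentiated cells the EED inhibitor differences were 2.86, −4.38 and −2.95 points, none of which passed Fisher's exact test (adjusted p = 0.470, 0.433 and 0.942). In the other 6 genes the EED inhibitor differed from DMSO by values between −5.43 points in GSTP1 and 4.47 points in RASSF1.

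Genes related to the 9 also had mixed levels, and their counts stand beside 43.7% of all tested promoters called lower with the DNMT1 inhibitor and 59.0% at 20% or more in DMSO. Of the Wnt antagonists other than SFRP1, 3 of 9 tested promoters were called lower with the DNMT1 inhibitor, and 5 were at 20% or more in DMSO, led by WIF1 at 64.5%, DKK4 at 52.6%, SFRP5 at 35.7% and DKK3 at 29.2%. Of 9 tested cell cycle inhibitors other than CDKN2A and CDKN2B, 4 were under 5% in DMSO. RBL2 (48.3%) and RBL1 (24.2%) were at 20% or more, and RBL2 was called lower. In the SOCS family SOCS6 (79.9% in DMSO, 11.8% with the DNMT1 inhibitor) was the only one of 5 tested at 20% or more or called, and the other 4 were under 5%. The SOCS6 promoter had 10 of 164 CpGs shared. Of 8 tested RASSF genes 3 were called lower and 5 were at 20% or more, with RASSF5 at 60.2%, RASSF2 at 58.6%, RASSF9 at 38.7% and RASSF8 at 35.1%. Few CpGs were shared in RASSF5 (9 of 137), RASSF2 (11 of 75) and RASSF8 (17 of 170). Both cadherins at 20% or more, CDH4 (53.2%) and CDH5 (34.7%), were called lower, of 5 tested. The promoters of DKK4, RASSF9 and CDH5 did not lie over a CpG island.

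By the median DMSO level, glutathione S-transferases (34.4%) and death-associated kinases (35.6%) were the most methylated of these related families. Of 8 tested, 6 were at 20% or more in DMSO and 4 were called lower with the DNMT1 inhibitor. GSTM5 was at 78.9%, GSTM2 at 71%, GSTA1 at 62.8% and GSTK1 at 38.4%. Unlike the GSTP1 promoter, none of these 4 lay over a CpG island by the rule used here. All 4 death-associated kinases tested were at 20% or more, with DAPK3 at 46.8%, STK17A at 36.2%, STK17B at 35.0% and DAPK2 at 25.4%, and 3 were called lower. Of 18 other tumor suppressors with islands often methylated in cancer, 8 were at 20% or more and 6 were called lower. TIMP3, an inhibitor of metalloproteinases, was at 89.1% in DMSO and 15.9% with the inhibitor, from only 6 of 95 CpGs. RUNX3, a transcription factor, went from 86.6% to 32.6%, the DNA repair gene MGMT from 58.5% to 18.3% and the protease inhibitor gene TFPI2 from 56.1% to 17.7%. They had 20 of 172, 13 of 117 and 40 of 84 CpGs shared. APC, named here after its value was seen, was at 2.19% in DMSO. The median DMSO level of these lists ran from 0.275% in the SOCS family to 35.6% in the kinases, beside 27.5% over all tested promoters. None of the related genes was called in differentiation or with the EED inhibitor.

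By the distance of the 4 library levels among 12291 promoters with at least 20 shared CpGs, the promoter most like that of CDH1 was CPT1B (81.7%, 78.9%, 21.1% and 84.2%, a distance of 3.80 points). The nearest to GSTP1 was GPR32 at 2.12 points, and to DAPK1 PHACTR4 at 2.77 points.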

How the data were processed

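Whole-genome bisulfite tables of 4 HUDEP-2 libraries were used. In the deposited tables each line is a CpG of hg38, given with the read count behind it and the percent of C and of T among these reads. Both strands are merged and at least 10 reads are present per line. The submitters' processing notes name Trim Galore 0.6.7, cutadapt 4.1, Bismark, Bowtie2 2.1.0 and methylKit, without roles. Per the labels' protocols libraries were made with the Accel-NGS Methyl-Seq kit. Removal of duplicates is not given in the sources used here, and duplicates would make intervals too narrow.

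Methylated reads were recovered by rounding percent times coverage. CpGs listed in all 4 libraries on chromosomes 1 to 22 and X were used, and levels are methylated over all reads, so deeper CpGs weigh more. Intervals are 95% Wilson or, for differences, Newcombe's, and a level of 0 allows up to 3 reads of the total. They cover counting error only, and neighbouring CpGs share reads. Starts came from GENCODE 44 (MANE Select for 19016 of 19970 genes). Two-sided Fisher's exact tests ran over all promoters, flanks and islands with at least 5 shared CpGs, with Benjamini-Hochberg adjustment within each. Islands had at least 500 bp, a GC share of 0.55 and an observed over expected CpG of 0.65. The share kept is the DNMT1 inhibitor level over the DMSO level, where DMSO was at 20% or more. Sequences of 2 promoters came from RefSeq, whose table held 7 of the 9 genes. The code was tested on simulated data. Members, lists and tests were chosen with earlier results of these data known. All 9 genes are described. Of related lists, genes at 20% or more in DMSO or called were named, at most 4 a list, and for each of the 9 promoters at 20% or more the nearest promoter; some of these genes, and 1 sequence, are not reported here. Alternatives were other CpG sets, coverage, promoter widths, thresholds, island rules, weighting and reference library. Python 3.11.15, scipy 1.17.1 and pandas 2.3.3 were used.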

Additional observations from a re-analysis of the deposited data

How the results depend on the processing

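No paired analysis was possible because each group has 1 library, and for the same reason no replicate could be left out. With the promoter narrowed to 250 bp either side, 0 of 3 testable members were called lower with the DNMT1 inhibitor, where 22.3% of 11209 promoters were, and the CDKN2B difference was 1.08 points. With a threshold of adjusted p under 0.05 and 10 points, Fisher's exact test called 6 member promoters lower with the DNMT1 inhibitor (68.3% of all promoters), 2 lower in differentiation (0.839%) and 3 higher with the EED inhibitor (1.26%). It called 9 downstream flanks (98.8% of all) and 7 islands (60.1%) lower with the DNMT1 inhibitor and 2 islands higher with the EED inhibitor (1.05%). With the reads of a region divided by its CpGs, 3 downstream flanks (76.7% of all) and 0 islands (9.80%) were called lower with the DNMT1 inhibitor. Against non-differentiated cells the EED inhibitor difference was −4.38 points in DAPK1 and −2.95 points in SOCS1. The causes were not tested. At 20 reads per CpG 7 of the 9 promoters could be tested, and SOCS1 had no value. Of the alternative promoter levels 101 moved by more than their counting interval and 59 did not, of island levels 30 and 22, and of shares kept 4 and 17. Alternatives for flanks, islands and the differentiation and EED inhibitor differences were chosen after seeing the data. The SOCS1 promoter rests on 6 shared CpGs, and none of the 61 in its core was listed in 3 libraries.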
